A study of Homo sapiens with 3 samples.

Results

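The interleukin-1 (IL-1) and interleukin-36 (IL-36) cytokines and their receptors were followed in the cell line FaDu, which derives from a hypopharyngeal squamous cell carcinoma. The cells had been grown for 48 h with NSC-631570, an extract of greater celandine (Chelidonium majus), at 10 µg/ml, or for 48 h without it, with distilled water in its place. RNA was measured on 3 Affymetrix PrimeView arrays, 1 from NSC-631570-treated cells and 2 from untreated cells, and each value is a log2 signal of a probe set, a group of probes for the same transcript. The genes were IL1A, IL1B, IL18, IL33, IL36G, IL1RN, IL36RN, IL1R1, IL1R2 and IL1RAP. All probe sets that name exactly 1 gene were searched for these 10 genes, which gave 19 of 44988 probe sets. No other probe set named any of them beside another gene. The labels do not say that the untreated arrays came from separate cultures, so their spread may be technical, and the treated condition has no spread of its own.

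Cytokines of this family share a fold and act through paired receptor chains. An agonist such as IL-1α or IL-36γ binds a ligand-specific chain, which recruits the accessory protein IL-1RAP, and the joined intracellular domains call in the adaptor MyD88 and IRAK kinases to activate NF-kB and MAP kinases. The antagonists IL-1Ra and IL-36Ra occupy the receptor without recruiting IL-1RAP. In squamous epithelia IL-1α is stored inside the cell and released on damage, and IL-36γ is made by activated keratinocytes.

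In RefSeq, 7 of the 10 genes lie on chromosome 2. IL1A and IL1B are direct neighbours there, and IL36G, IL36RN and IL1RN belong to the same run of family genes. RefSeq gave promoter sequences for 9 of the 10 genes, 18 in all. Shown here are the 250 bases before the first listed start of the 2 genes that stood lower in untreated 2 and the 2 that stood higher there by the widest margins, on the brightest probe set of genes with a sequence, on build GRCh38.p14. Capitals mark matches on either strand to AP-1 (TGANTCA) or to the AhR core (GCGTG).
IL36G, chr2:112977756-112978005, plus strand: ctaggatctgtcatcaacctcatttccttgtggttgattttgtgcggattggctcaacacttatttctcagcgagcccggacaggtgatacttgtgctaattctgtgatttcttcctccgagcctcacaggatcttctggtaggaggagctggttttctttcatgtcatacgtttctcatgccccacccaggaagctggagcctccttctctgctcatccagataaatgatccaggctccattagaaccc
IL1RN, chr2:113117721-113117970, plus strand: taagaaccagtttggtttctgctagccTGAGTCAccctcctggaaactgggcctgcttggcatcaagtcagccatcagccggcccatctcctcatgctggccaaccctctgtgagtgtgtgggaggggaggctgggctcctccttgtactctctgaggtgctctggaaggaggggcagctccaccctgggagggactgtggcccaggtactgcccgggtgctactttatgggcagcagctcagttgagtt
IL1A, chr2:112784494-112784743, minus strand: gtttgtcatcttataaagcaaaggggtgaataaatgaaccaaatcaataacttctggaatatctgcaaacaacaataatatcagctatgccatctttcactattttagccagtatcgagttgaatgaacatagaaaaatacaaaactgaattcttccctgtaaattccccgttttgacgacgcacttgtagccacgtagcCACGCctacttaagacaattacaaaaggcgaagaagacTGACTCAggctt
IL1B, chr2:112836780-112837029, minus strand: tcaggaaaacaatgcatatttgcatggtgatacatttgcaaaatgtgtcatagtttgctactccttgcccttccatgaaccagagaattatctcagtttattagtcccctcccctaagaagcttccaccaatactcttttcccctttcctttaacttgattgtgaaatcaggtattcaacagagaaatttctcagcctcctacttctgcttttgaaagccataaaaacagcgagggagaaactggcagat

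These promoters share few of the searched letters. The AP-1 motif stands in those of IL1RN and IL1A, and in 6.57% of all 35116 promoters of that length. The AhR core stands in that of IL1A alone among these 4 and in 32.2% of all. Matches to NF-kB (GGGA, 3 free bases, TCC; 4.31% of all) or to the interferon response element (ISRE, GAAA, 2 free bases, GAAA; 3.02% of all) were in none of the 4. Among the other listed starts of these genes, both of IL1RN hold an ISRE match, which is the same stretch since their windows overlap. The window of the other IL1A start overlaps that shown. It holds the same AP-1 and AhR core stretches and a further AP-1 match (TGAGTCA). No matches of different motifs overlapped. A match is a run of letters only, and neither binding nor promoter activity was measured here.

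No gene of the family passed the test. Of the 19 probe sets, 10 had a mean signal past the filter of 5.85, the 40th percentile of all probe sets, and entered the test. They represent IL1A, IL1B, IL18, IL36G, IL1RN, IL36RN and IL1RAP. By limma with Benjamini-Hochberg adjustment over 27249 probe sets, 0 of the 10 passed, and 1, for IL36G, had an unadjusted p under 0.05, as 8.31% of all did upward and 9.55% downward. Over all tested probe sets 0.554% were called higher and 2.38% lower. A 2-fold distance from both untreated arrays was reached by none of the 10, against 0.646% of all tested probe sets upward and 2.57% downward. At 1.5-fold 1 of the 10, IL36G, stood above both, against 4.15% upward and 6.77% downward. The plot of signals by array gives all 19 probe sets.

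**Figure D1:**
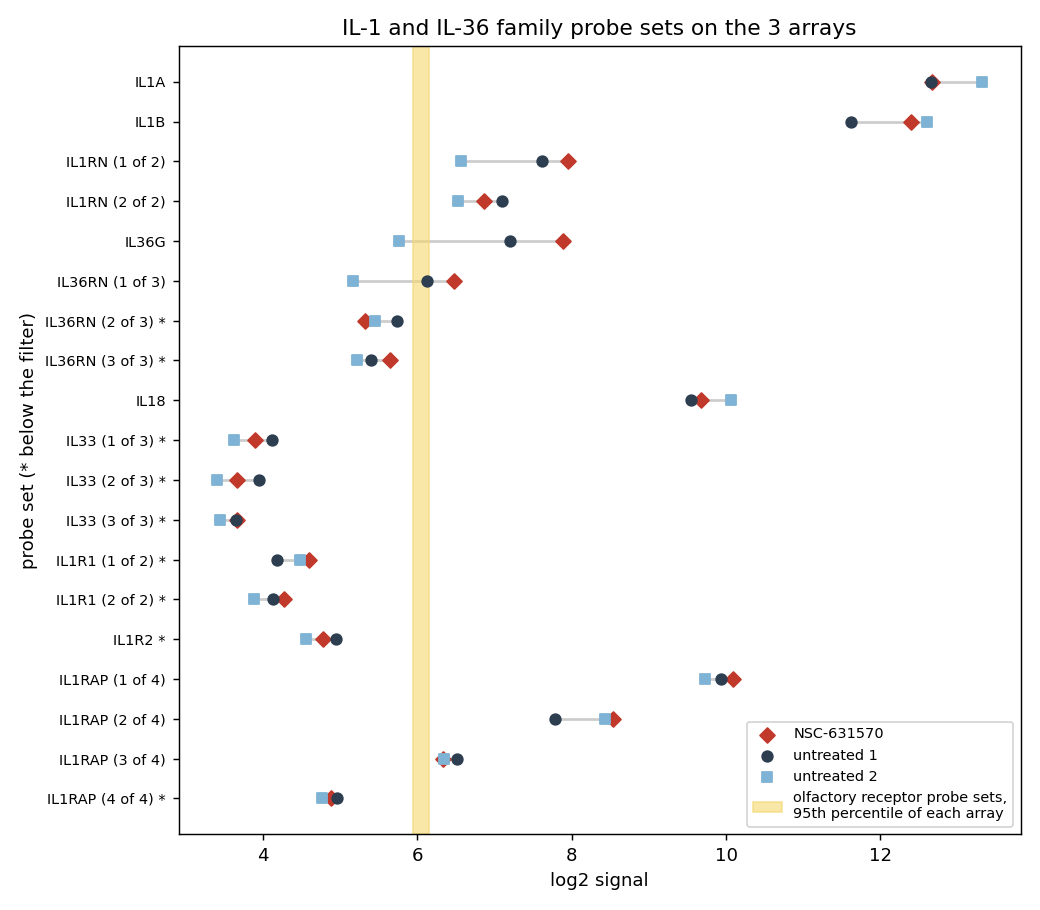
Log2 signal (x axis) of the 19 probe sets of the 10 genes, with a row for each probe set, numbered by brightness within a gene; diamonds are NSC-631570, circles untreated 1 and squares untreated 2. The band is the 95th percentile of 359 olfactory receptor probe sets, 5.94 to 6.15 depending on the array; the treated array is highest and untreated 2 lowest in 7 of the 19, with the widest spread in IL36G, and asterisks mark probe sets below the filter.

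IL36G encodes IL-36γ, the main IL-36 agonist of keratinocytes, and stood farthest from the untreated arrays. Its single probe set (11753008_a_at) read 7.88 in the NSC-631570 array, against 7.2 in untreated 1 and 5.76 in untreated 2. The treated value was the highest of the 3, 1.61-fold above untreated 1 and 4.35-fold above untreated 2. The untreated arrays were themselves 2.71-fold apart, a gap reached by 0.294% of all tested probe sets. The untreated 2 value lay under that array's 95th percentile of olfactory receptor probe sets (5.94, a yardstick of low signal described with IL33), so the 4.35-fold and the 2.71-fold are ratios to a signal not shown to be above background. Against the untreated mean the log2 difference was 1.40 ± 0.50 (SE from limma, 1 treated and 2 untreated arrays; adjusted p = 0.195). Of all tested probe sets, 2.6% lay at least as far above the nearer untreated array as IL36G did.

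IL1A encodes IL-1α. It read 12.67 in the treated array, against 12.66 in untreated 1 and 13.32 in untreated 2. The treated array equalled untreated 1 within 0.01 and lay below untreated 2 alone, so the groups overlapped (log2 difference −0.32 ± 0.30, limma adjusted p = 0.666).

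IL1B encodes IL-1β, which is made as a precursor and cut by caspase-1. It read 12.40 in the treated array, against 11.62 in untreated 1 and 12.60 in untreated 2, values that place the treated array between the others. The untreated arrays were 1.97-fold apart, and the difference from their mean was 0.29 ± 0.38 (limma adjusted p = 0.773). IL18 encodes another caspase-1 substrate. Its single probe set, of the type that may cross-hybridise by its name, read 9.67 in the treated array, against 9.55 and 10.07 in untreated 1 and untreated 2 (−0.15 ± 0.27, adjusted p = 0.86). For IL1B and IL18 alike the treated array was neither the highest nor the lowest.

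IL33 encodes a nuclear alarmin. Its 3 probe sets were not tested, and read 3.66 to 3.89 in the treated array, 3.65 to 4.11 in untreated 1 and 3.40 to 3.62 in untreated 2. These signals lay under the 95th percentile of 359 probe sets for olfactory receptors, genes that serve smell and are used here as a yardstick of low signal. That percentile was 6.0 in the treated array, 6.15 in untreated 1 and 5.94 in untreated 2. It is no detection call, since single-probe data were not used here.

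The order of arrays seen in IL36G, with the treated array highest and untreated 2 lowest, was that of 7 of the 19 probe sets and of 4 of the 10 tested, against 20.6% of all tested probe sets. Those of the antagonist genes IL1RN and IL36RN are described here, and the others were of IL1RAP, IL1R1 and IL33. The IL1R1 and IL33 probe sets lay under the olfactory yardstick. Both counts hold IL36G, from which the order was taken, and an IL36RN probe set that passed the filter through its treated value. They are thus no test of a shared order. IL1RN encodes IL-1Ra, and its brighter probe set (11719754_s_at) read 7.95 in the treated array, against 7.62 in untreated 1 and 6.56 in untreated 2. The treated value was 1.26-fold above untreated 1 and 2.61-fold above untreated 2 (log2 difference 0.86 ± 0.40, limma adjusted p = 0.314). The second IL1RN probe set (11740722_a_at) disagreed, with 6.86 in the treated array between 7.09 in untreated 1 and 6.52 in untreated 2 (0.05 ± 0.28, adjusted p = 0.957). Untreated 2 was the lowest array on both.

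IL36RN encodes IL-36Ra. Its brightest probe set (11732734_a_at) read 6.47 in the treated array, against 6.12 in untreated 1 and 5.17 in untreated 2. Only the treated value exceeded the olfactory yardstick of its array, so the fold of 1.28 over untreated 1 and of 2.47 over untreated 2 are ratios to signals not shown to be above background (0.83 ± 0.37, limma adjusted p = 0.293). Its untreated mean lay under the filter, so it entered the test through the treated value. Its other probe sets stayed below the filter, and went both ways: 5.32 in the treated array against 5.73 and 5.45 in untreated 1 and untreated 2 on 11735417_a_at, and 5.64 against 5.40 and 5.21 on 11732733_a_at. The treated array was thus lowest on the first of them and highest on the second.

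IL1RAP encodes the accessory chain shared by the IL-1, IL-33 and IL-36 receptors. Its brightest probe set (11729099_a_at) read 10.09 in the treated array, against 9.93 in untreated 1 and 9.73 in untreated 2 (log2 difference 0.26 ± 0.23, limma adjusted p = 0.642). The next (11732585_a_at) read 8.54 in the treated array, against 7.78 in untreated 1 and 8.43 in untreated 2 (0.44 ± 0.30, adjusted p = 0.52). On both the treated array was the highest, but the order of the untreated arrays was opposite. The probe set 11729098_a_at read 6.33 in the treated array, against 6.51 and 6.35 in untreated 1 and untreated 2, so the treated array was the lowest there. The last (11761995_a_at) stayed below the filter at 4.88, against 4.96 and 4.76.

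The ligand-binding IL-1 receptor genes had low signal on every array. IL1R1 encodes the signalling chain, and its 2 probe sets read 4.60 and 4.27 in the treated array, against 4.18 and 4.13 in untreated 1 and 4.48 and 3.88 in untreated 2. The treated array was highest on both, by 0.12 and 0.15 over the nearer untreated array. IL1R2 encodes a decoy that binds IL-1 without signalling, and read 4.77 in the treated array, between 4.95 in untreated 1 and 4.55 in untreated 2. All 3 probe sets lay under the olfactory yardstick on all 3 arrays, and none was tested.

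Among the 10 tested probe sets the treated array lay above both untreated arrays in 5, below both in 1 and between them in 4. Of all tested probe sets 40.7% lay above both, 34.5% below both and 24.8% between, so these counts are not far from the background. Among the 9 whose untreated mean passed the filter, which leaves out IL36RN, 4 lay above both, 1 below both and 4 between. Of the 9 probe sets not tested, 4 lay above both, 1 below both and 4 between. The median log2 difference from the untreated mean was 0.28 over the 10 tested, against 0.03 over all tested probe sets. Over all 19, with those below the filter, it was 0.11. The 10 include the IL36RN probe set, at 0.83, which entered through its treated value, and repeat probe sets of IL1RN and IL1RAP. On the brightest probe set of each gene the median was 0.29, against 0.12 over all genes. The plot of differences from each untreated array sets both values side by side. The treated array was nearer to untreated 1 in 7 of the 10, against 49.3% of all tested probe sets. These were IL36G, IL36RN, both IL1RN probe sets and the brightest of IL1RAP, where it stood above untreated 2, and IL1A and IL18, where it stood below it. It was nearer to untreated 2 in IL1B and the other 2 tested IL1RAP probe sets.

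**Figure D2:**
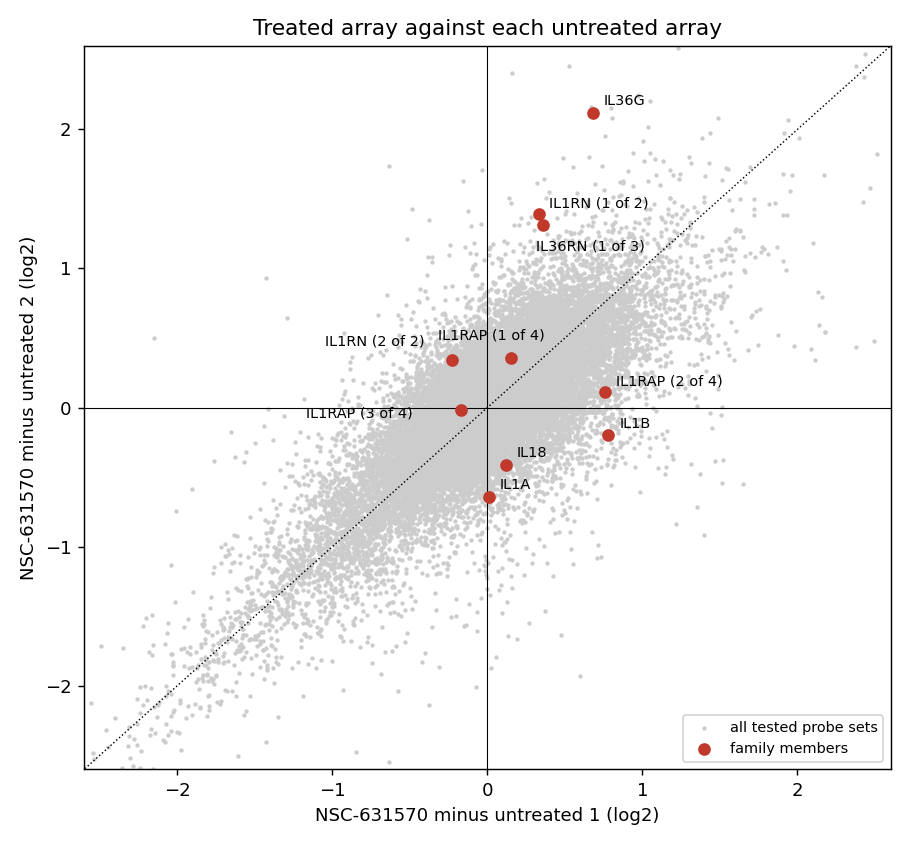
Log2 difference of the NSC-631570 array from untreated 1 (x axis) and from untreated 2 (y axis) for all 27249 tested probe sets (grey) and the 10 tested probe sets of the family (red); the dotted line marks equal differences, and 38 grey points lie outside the axes. IL36G stands at 0.68 and 2.12, and IL1A at 0.01 and −0.64, on opposite sides of the line.

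The untreated arrays differed more in this family than in most probe sets. They were at least 0.5 apart on the log2 scale in 8 of the 10 tested probe sets, where 11.3% of all tested probe sets were, and at least 2-fold apart in 2, where 1.38% were. The median gap was 0.65 in the 10 and 0.19 in all. The gap exceeded the treated array's distance from the untreated mean in 9 of the 10, and in 43% of all. Untreated 2 was the higher in IL1A by 0.65, IL1B by 0.98, IL18 by 0.52 and 1 IL1RAP probe set by 0.65. It was the lower, by the log2 difference of untreated 2 minus untreated 1, in IL36G (−1.44), IL36RN (−0.95) and both IL1RN probe sets (−1.06 and −0.57). Wide gaps were not particular to the family. Among the target genes given below, the gap was 2.36 in PI3, 2.25 in S100A9 and 1.78 in LCN2. Others of that list had narrow gaps, such as TNFAIP3 at 0.2 and CSF3 at 0.08. No test was run on the 2 untreated arrays.

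With 3 arrays few patterns can be told apart, so likeness to IL36G was taken as the distance between the pairs of single differences (0.68 from untreated 1, 2.12 from untreated 2). Of 11925 other genes on their brightest probe set, 3 lay within 0.25 of it. They were REC8, a meiotic cohesin subunit gene, at 0.67 and 2.16, IFI44L, an interferon-induced gene, at 0.80 and 2.16, and ABCA1, a cholesterol exporter gene, at 0.81 and 2.08. The next was AKR1C3, an aldo-keto reductase gene, at 0.65 and 1.80. No gene of the family lay below both untreated arrays on its brightest probe set, so no such search was made downward.

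The remaining ligands of the family had no signal past the filter. IL36A, IL36B, IL37 and IL1F10 read 4.45 to 5.20 in the treated array and lay under the olfactory yardstick on all 3 arrays. Of 8 other receptor and binding-protein genes 3 were tested, and all 3 stood above both untreated arrays, where 51.6% of all genes did on their brightest probe set. None of the 3 passed limma, where 0.779% of those genes were called higher and 0.235% lower. The other 5, IL1RL2, IL18RAP, IL18BP, IL1RAPL1 and IL1RAPL2, lay under the olfactory yardstick on all 3 arrays. IL1RL2 read 4.66 in the treated array, against 4.74 in untreated 1 and 4.66 in untreated 2.

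IL1RL1 encodes ST2, the receptor of IL-33. It read 8.11 in the treated array, against 5.93 in untreated 1 and 7.56 in untreated 2, and the untreated arrays were 3.10-fold apart, a ratio to an untreated 1 value under that array's olfactory yardstick of 6.15. The log2 difference was 1.36 ± 0.56 (limma adjusted p = 0.255), and its 4 other probe sets gave a median of 1.22 within −0.04 and 1.37. One of the 4, 11745596_a_at, gave the same values as the brightest on all 3 arrays, so that median counts them again. Among the 4, 11759145_s_at, named after its values were seen, had the untreated arrays close together. It read 7.86 in the treated array, against 6.68 in untreated 1 and 6.87 in untreated 2 (1.09 ± 0.23, limma adjusted p = 0.0504). IL18R1 encodes the ligand-binding IL-18 receptor chain and had close untreated values: it read 7.29 in the treated array, against 6.4 in untreated 1 and 6.48 in untreated 2. It stood 1.80-fold above their mean (0.85 ± 0.22, limma adjusted p = 0.0894), the smallest adjusted p of these receptors on their brightest probe sets. Its other probe set was below the filter, at 3.75 in the treated array and 4.25 and 3.97 in untreated 1 and untreated 2. SIGIRR, an inhibitory receptor of the family, stood at 0.34 ± 0.22 (adjusted p = 0.502).

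Of 21 genes that carry the signal inside the cell, 19 were tested and 0 passed limma. Of these 19, 11 stood above both untreated arrays and 6 below both, and at an unadjusted p under 0.05 there were 3 higher and 1 lower. Over all genes on their brightest probe set, 51.6% stood above both and 22.5% below both, and 11.5% were higher and 2.11% lower at that p. IRAK2, a kinase-like partner of MyD88, read 7.91 in the treated array, against 6.38 in untreated 1 and 7.12 in untreated 2 (1.16 ± 0.32, adjusted p = 0.107). The other IRAK2 probe set differed by −0.07, so the probe sets disagree.

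IKBKG, the regulatory subunit of the IkB kinase, read 6.52 in the treated array, against 7.05 and 7.07 in untreated 1 and untreated 2 (−0.54 ± 0.22, limma adjusted p = 0.25), and its 7 other probe sets lay between −0.98 and −0.34, with a median of −0.67. The kinase subunit gene IKBKB stood at 0.52 ± 0.22 (adjusted p = 0.273) on its brightest probe set, and its 10 others spread between −0.96 and 0.32. PELI2, a ubiquitin ligase gene of this route, stood at 0.63 (limma adjusted p = 0.233) and ECSIT, a TRAF6-binding protein gene, at −0.37 (adjusted p = 0.449). The untreated mean of PELI2 lay under the filter, so it entered the test through the treated value of 6.43. Its untreated 1 value of 5.61 lay under that array's olfactory yardstick of 6.15. PELI2 is counted among the genes above both untreated arrays and among those higher at the unadjusted p. The median of the 19 was 0.14.

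Of 24 genes for maturation and release of these cytokines 14 were tested and 1, CAPN1, was called lower, against 0.235% of all genes. It encodes a calpain subunit, and calpains cut the IL-1α precursor. CAPN1 read 8.02 in the treated array, against 9.65 in untreated 1 and 9.54 in untreated 2 (log2 difference −1.57 ± 0.22, limma adjusted p = 0.0151), but its other probe set differed by −0.32. On genes taken by their brightest probe set alone the adjusted p was 0.0683. In the treated array the 5′ control probe set of ACTB read 12.23, against 13.61 and 13.60 in untreated 1 and untreated 2, and the part of this in the lower values of CAPN1, IKBKG and CASP8 was not tested.

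The other members of that list did not pass. S100A13, which takes part in the export of IL-1α, read 12 in the treated array, against 11.08 and 11.17 in untreated 1 and untreated 2 (0.88 ± 0.22, limma adjusted p = 0.084, or 0.0456 with an intensity trend in the prior variance). The pore-forming gasdermin gene GSDME read 8.91, against 7.55 and 8.42 (0.93 ± 0.35, adjusted p = 0.217). PYCARD, the inflammasome adaptor, read 8.60, against 8.13 and 7.53 (0.78 ± 0.29, adjusted p = 0.208), and its other probe set gave 0.87. In each of these 3 the treated array was the highest.

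CASP1, the protease that cuts IL-1β and IL-18, read 9.08 in the treated array, against 9.09 in untreated 1 and 8.27 in untreated 2, and so equalled untreated 1 within 0.01; its other probe sets did not share 1 order of arrays. CASP1 was chosen after its values were seen. CASP8 stood at −0.62 ± 0.24 (adjusted p = 0.226), and the protease gene CTSS at 0.76 ± 0.35 (adjusted p = 0.315). Of the 14 genes 7 stood above both untreated arrays, 3 below both and 4 between them, with a median of 0.21, against 51.6%, 22.5% and 25.9% of all genes. The plot of signalling and processing genes gives them all.

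**Figure D3:**
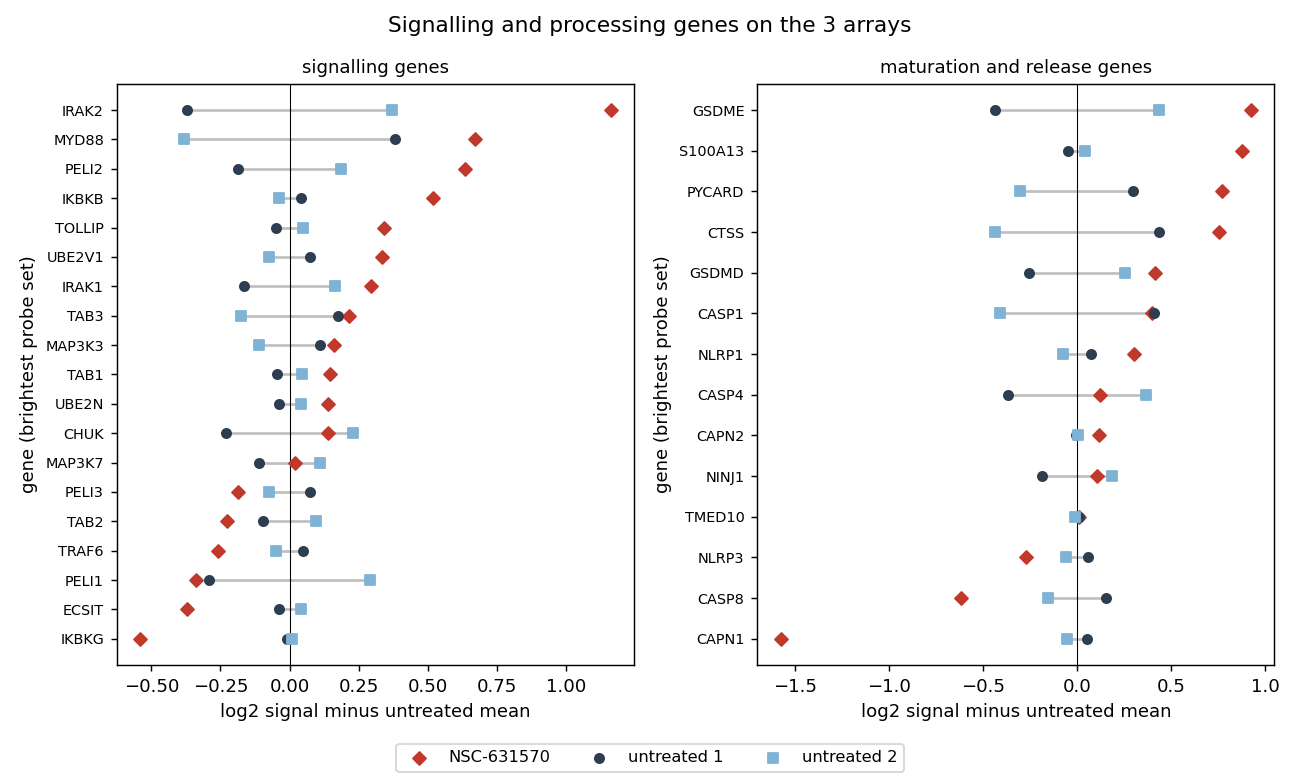
Log2 signal minus the mean of the untreated arrays (x axis) for the 19 tested signalling genes (left) and the 14 tested maturation and release genes (right), on the brightest probe set of each gene; diamonds are NSC-631570, circles untreated 1 and squares untreated 2, and a grey line joins the untreated arrays. IRAK2 stands highest on the left at 1.16, and CAPN1 lowest on the right at −1.57.

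Genes that IL-1 and IL-36 are known to induce in keratinocytes stood more often below both untreated arrays than above both. Of 26 listed, 21 were tested and 0 passed limma; 10 stood below both untreated arrays, 3 above both and 8 between them, against 22.5% and 51.6% of all genes below and above. At an unadjusted p under 0.05 there were 5 lower and 1 higher of the 21, against 2.11% lower and 11.5% higher of all genes. The list's median log2 difference was −0.25. In the treated array the 5′ control probe sets were low, by −1.37 for ACTB and −0.48 for GAPDH, and their 3′ ones stood at 0.20 and −0.01, and their part in the lower values of this list was not tested.

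Chemokine genes led the lower end. CCL20 read 9.92 in the treated array, against 10.85 in untreated 1 and 11.95 in untreated 2 (−1.48 ± 0.41, limma adjusted p = 0.106). CXCL1 read 10.37, against 11.45 and 11.15 (−0.93 ± 0.24, adjusted p = 0.0869), and CXCL8 read 11.75, against 12.48 and 13.04 (−1.01 ± 0.28, adjusted p = 0.11). CXCL2 stood at −1.18 ± 0.42 (adjusted p = 0.192). In all 4 the treated array was the lowest, and the other probe sets of CXCL1, CXCL8 and CXCL2 had medians of −0.82, −0.89 and −1.30. By their names the brightest probe sets of CXCL1, CXCL8 and CXCL2 are of types that may cross-hybridise, so their values may not be separate.

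TSLP, a cytokine gene of epithelia, went the opposite way, with 8.19 in the treated array, against 6.49 in untreated 1 and 7.54 in untreated 2 (1.18 ± 0.39, limma adjusted p = 0.171). Its 2 other probe sets lay below the filter and differed by −0.29 and 0.03. Antimicrobial genes on the list were, like IL36G and unlike TSLP, lower in untreated 2 than in untreated 1, with unequal places of the treated array. S100A9 read 8.77 in the treated array, against 8.62 in untreated 1 and 6.37 in untreated 2, and LCN2 read 10.19, against 10.34 and 8.56. PI3 read 6.98 in the treated array, against 8.4 in untreated 1 and 6.04 in untreated 2, and S100A7 read 6.55, against 6.93 and 5.2. The S100A7 value of untreated 2 lay under that array's olfactory yardstick of 5.94. S100A8 was below the filter, at 5.54 in the treated array, against 6.53 and 4.89, so in PI3, S100A7 and S100A8 the treated array lay between the others, 1.43, 0.38 and 1.0 below untreated 1. The gap ran the other way in the cytokine gene IL6, which read 7.74 in the treated array, against 7.74 in untreated 1 and 8.86 in untreated 2. These 6 genes were chosen after their values were seen, and in S100A9, LCN2 and IL6 the treated array stood within 0.16 of untreated 1.

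Genes of late keratinocyte differentiation are given because some of them had the order of arrays seen in IL36G. Among those tested, KRT13, CNFN, TGM1 and SPRR1B had it, and the others did not. Of 20 listed 11 were tested and 0 passed limma. Of the 11, 9 were lower in untreated 2 than in untreated 1, with a median of −0.38. Over all tested probe sets the median of untreated 2 minus untreated 1 was −0.01. The share of all genes lower in untreated 2 was not counted. The treated array stood above both untreated arrays in 6 of the 11, below both in 1 and between them in 4. Of all genes on their brightest probe set, 51.6%, 22.5% and 25.9% did so. SPRR1B, a cornified envelope precursor gene, read 6.68 in the treated array, against 6.30 in untreated 1 and 5.17 in untreated 2. Its untreated mean lay under the filter, so it entered the test through the treated value. Its untreated 2 value lay under that array's olfactory yardstick of 5.94. The keratin gene KRT4 read 8.64 in the treated array, between 8.68 in untreated 1 and 6.93 in untreated 2. Both were chosen after their values were seen. The genes IVL, LORICRIN and FLG, whose proteins build the cornified layer, lay at 4.09 or less in the treated array, under the olfactory yardstick. The summed linear signal of the 19 named differentiation genes was 3550 in the treated array, 3090 in untreated 1 and 2920 in untreated 2. The part of differentiation in the IL36G, IL1RN and IL36RN values was not tested.

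**Figure D4:**
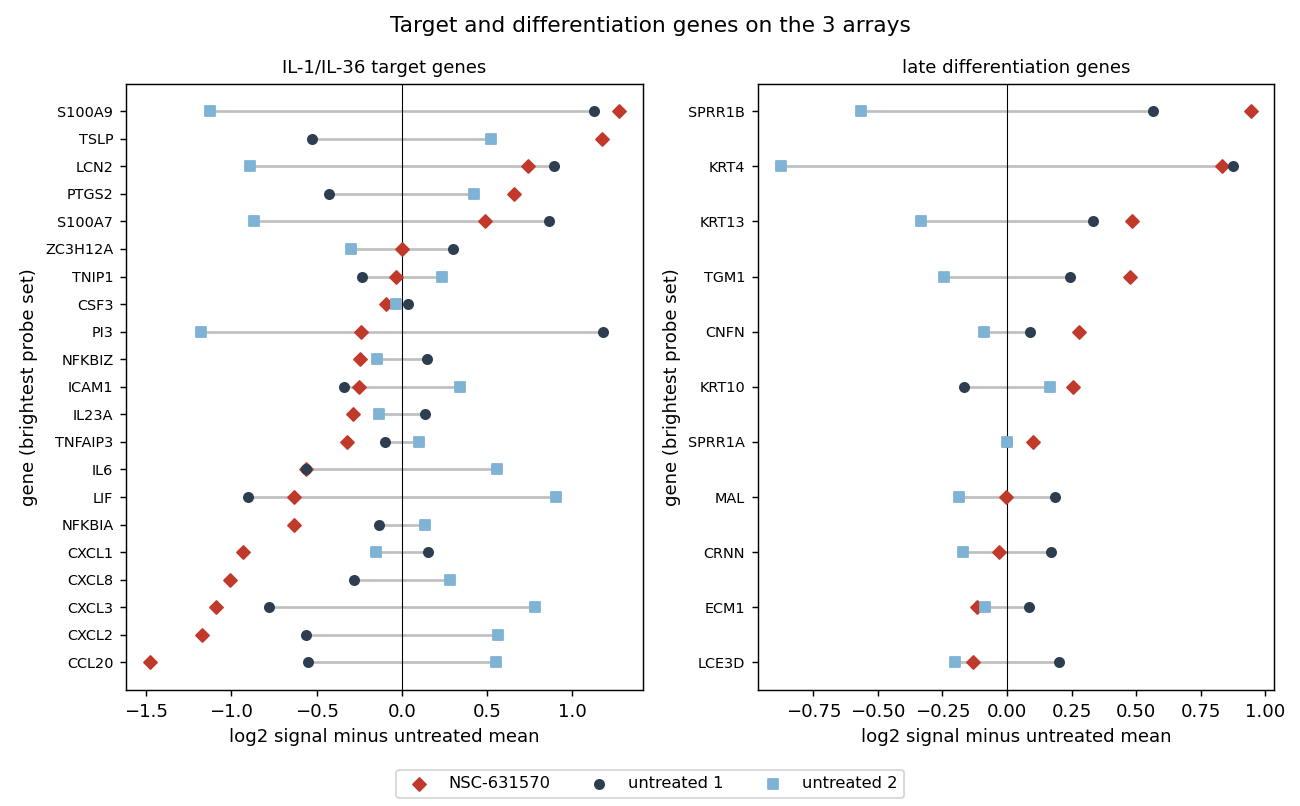
Log2 signal minus the mean of the untreated arrays (x axis) for the 21 tested IL-1 and IL-36 target genes (left) and the 11 tested late differentiation genes (right), on the brightest probe set of each gene; symbols are diamonds for NSC-631570, circles for untreated 1 and squares for untreated 2. CCL20 stands lowest at −1.48, and S100A9 and KRT4 have untreated arrays far apart with the treated array near untreated 1.

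Epithelial markers of the labelled cell type had signal. Of 12 genes listed for squamous epithelium, TP63, KRT6A, KRT16 and KRT17 had no probe set naming them alone. The 8 others, among them KRT5, KRT14 and the general epithelial genes CDH1 and EPCAM, exceeded the olfactory yardstick on every array. Of 15 named leukocyte markers 4 did so, with CD68, CD14, TYROBP and CSF1R the brightest, and 10 did so on no array. PTPRC, which defines leukocytes, read 3.78 in the treated array and 3.72 in both untreated arrays. The summed leukocyte signal was 1500 in the treated array, 973 in untreated 1 and 988 in untreated 2, with CD68, also a lysosomal gene, at 9.53, against 7.61 and 8.55. Of 9 fibroblast markers 7, and of 6 endothelial markers 3, exceeded the yardstick on no array, and their sums were 301 and 461 in the treated array, 313 and 492 in untreated 1, and 285 and 486 in untreated 2. The fibroblast marker PDGFRB and the endothelial markers CDH5, PECAM1 and VWF exceeded the yardstick on all 3 arrays.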

How the data were processed

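RNA of 1 NSC-631570-treated and 2 untreated FaDu samples was measured on PrimeView arrays. The authors deposited 1 log2 signal for each probe set and array. Expression Console (Affymetrix) is the software named, per the submitters' processing notes, with its algorithm, normalization and version not given in the sources used here. A log2 scale was inferred: values run from 2.92 to 14.95, with array medians of 6.55 (treated), 6.62 and 6.57 (untreated). They were used as deposited. The 49395 probe sets hold 102 controls, and 44988 others named 1 gene, 1832 several and 2473 none here through the platform annotation, with symbols updated through RefSeq. No coordinates of probe sets are given, since no build is named; promoters are RefSeq's (GRCh38.p14).

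All 27249 single-gene probe sets at or above the 40th percentile went into limma 3.58.1 under R 4.3.3, and an adjusted p (Benjamini-Hochberg) under 0.05 was called. Only the untreated arrays inform the variance, with 1 residual and 6.66 prior degrees of freedom, and equal spread is assumed for the treated array. An exact permutation test of 1 against 2 arrays cannot give a p below 0.333 and was not used. A second rule counted probe sets past both untreated arrays. Pathway genes were read on their brightest probe set. The fit was tested on simulated arrays.

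Members, lists and marker lists were chosen with earlier results of these data known. Named were all members, list genes past the threshold, up to 5 others per list farthest from the nearer untreated array, and the 4 genes most like IL36G; others are marked. Alternatives were other scalings, filters, gene summaries, variance models, a treat bound of 0.5, a 1.5-fold rule and leaving out each untreated array.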

Additional observations from a re-analysis of the deposited data

How the results depend on the processing

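No member probe set passed limma under any of the 11 alternative fits, and the adjusted p of IL36G lay between 0.161 and 0.394 in those that tested it, beside 1.0 against a bound of 0.5; at the 60th percentile filter it was not tested. IL36G alone lay past both untreated arrays by 1.5-fold (1 probe set, against 0 at 2-fold). Above and below both untreated arrays were 5 and 2 member probe sets with a common median over the tested probe sets, 9 and 2 without a filter, and 3 and 0 under the stricter filter. Against a single untreated array, without replicate 1 or 2 in turn, 0 to 3 member probe sets differed 2-fold (IL36G, IL1RN and IL36RN, all from untreated 2), 6 to 8 were above and 2 to 4 below, and the median difference was 0.12 to 0.22. Pathway genes then stood above in 30 to 32 and below in 25 to 27, against 24 and 19 past both. CAPN1 was the 1 pathway gene called; 0 were called with genes as the unit, by brightest or mean probe set, and against a bound of 0.5, and 2 with an intensity trend (S100A13 added). Averaging the probe sets per gene left 15 pathway genes above both. Over all probe sets limma called 799 (151 higher, 648 lower), against 1143 with a common median over the tested probe sets, 953 with the trend, 455 after quantile normalization, 538 without a filter, 440 at the 60th percentile, 139 against the bound, and 8 and 3 with genes as the unit; the cause was not tested. No paired analysis was possible because only 1 treated array exists. The number of arrays and the lack of detection calls limit all values near the filter.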
